A study of Mus musculus with 4 samples.

Results

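Natural killer (NK) cells, innate lymphoid cells and T cells were looked for among macrophages that had been sorted from perigonadal white fat, a visceral depot of the mouse. The sort kept live CD45-positive, CD11b-positive and CD64-positive cells that were negative for a lineage stain, and the series asks how loss of the transcription factor BLIMP1 alters fat macrophages. There were 4 libraries, 1 for each group: CKO mice, with a conditional knockout of BLIMP1, on high-fat diet (HFD), control (WT) mice on HFD, CKO mice on normal diet and WT mice on normal diet. The sources used here do not give the driver of the knockout, the cell types it acts in, or the age, sex, number of animals and time on diet. Cells were kept with at least 500 UMIs (unique molecular identifiers, each standing for 1 captured transcript), at least 300 genes and at most 10% mitochondrial UMIs. A kept cell was gated when it held a UMI of at least 3 of 8 genes, Ncr1, Klrb1c, Nkg7, Gzma, Il2rb, Cd3e, Cd3g and Gata3, and at most 10 UMIs per 10000 of the complement genes C1qa, C1qb and C1qc, which fat macrophages make. This rule found 58 of 21388 kept cells: 13 of 8731 in CKO HFD, 9 of 4650 in WT HFD, 15 of 4302 in CKO normal diet and 21 of 3705 in WT normal diet.

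NK cells and group 1 innate lymphoid cells kill stressed cells and release interferon-gamma and chemokines, and in visceral fat this group is known as an early source of interferon-gamma that acts on macrophages. T cells read antigen through a receptor of alpha and beta or gamma and delta chains carried by the CD3 proteins, and fat is known to hold gamma-delta T cells that make interleukin-17. None of these cells is a macrophage, and CD64, the high-affinity Fc receptor encoded by Fcgr1, is not a usual protein of theirs.

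The promoters of the NK receptor gene Ncr1 and of the chemokine gene Xcl1 are shown because the transcripts of both were at or near 0 in macrophages of the same libraries and stood higher in the HFD libraries of the gated cells. Each run is the 250 bases before the RefSeq start of the gene in GRCm38.p6, 5′ to 3′ on the gene's strand, at chr7:4337465-4337714 (plus strand) for Ncr1 and chr1:164935523-164935772 (minus strand) for Xcl1. Capitals mark the core TGTGGT of RUNX factors, or its reverse complement.
Ncr1: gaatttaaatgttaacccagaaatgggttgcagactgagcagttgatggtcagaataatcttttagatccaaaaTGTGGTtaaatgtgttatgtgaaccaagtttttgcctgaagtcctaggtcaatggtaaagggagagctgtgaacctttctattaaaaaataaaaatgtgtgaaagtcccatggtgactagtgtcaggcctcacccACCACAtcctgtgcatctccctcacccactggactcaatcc
Xcl1: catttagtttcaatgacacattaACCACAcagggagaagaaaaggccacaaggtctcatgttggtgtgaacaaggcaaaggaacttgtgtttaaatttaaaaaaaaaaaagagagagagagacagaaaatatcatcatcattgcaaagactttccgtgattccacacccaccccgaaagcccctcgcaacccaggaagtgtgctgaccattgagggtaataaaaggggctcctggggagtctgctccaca
Ncr1 held 2 such matches, 176 and 41 bases before the start, and Xcl1 held 1, 227 bases before it. The same windows of Ifng and Il23r held none. The T-box core AGGTGT was in none of the 4 windows on either strand. Over all 27025 promoter windows of the table, the RUNX core was in 3832 (14.2%) and the T-box core in 3241 (12.0%), so either match is common. A match is a run of letters and no evidence of binding.

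Kept cells had a median of 3923 UMIs in CKO HFD, 14492 in WT HFD, 3939 in CKO normal diet and 4092 in WT normal diet, so the WT HFD library stood apart in depth. Gated cells were shallower than C1q-positive cells (more than 10 C1q UMIs per 10000), with medians of 1879, 5735, 2350.0 and 2603 UMIs against 3887, 14704, 3756 and 4065 in the same order of libraries. Their UMIs summed to 27268, 53560, 44513 and 70575, and levels below are counts per 1000000 of these sums (CPM). Libraries shared 2 to 9 cell barcodes per pair, and no barcode was gated in both libraries of a pair. With 1 library per group the groups were not tested against each other, and no p-values are printed. The 95% intervals were exact Clopper-Pearson for shares, log-normal (Katz) for ratios of shares, exact Poisson for levels and conditional binomial for ratios of levels. They cover counting error only, and UMIs of 1 cell are not independent of each other. Prdm1, which encodes BLIMP1 and which NK and T cells also use, had 1, 3, 4 and 1 UMIs in the gated cells of CKO HFD, WT HFD, CKO normal diet and WT normal diet, and 22.1, 22.4, 29.2 and 25.2 CPM in C1q-positive cells. A 3′ tag does not show whether an upstream exon is deleted, so these counts check nothing about the knockout.

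The gated cells matched their label by the marker lists for NK and T cells. The 22 NK markers summed to 10268 CPM in CKO HFD, 8514 in WT HFD, 3549.5 in CKO normal diet and 5370.2 in WT normal diet, against 11.9, 8.63, 36.0 and 43.5 CPM in C1q-positive cells. The 18 T cell markers summed to 2640.5, 1419, 2089 and 2607 CPM, against 3.51, 4.17, 13.2 and 15.4 CPM. Since the gate genes are among these markers and chose the cells, the sums are a description and support nothing. Ranked by their lowest fold over C1q-positive cells in any library, the leading genes were Il2rb, Nkg7, Ccl5, Skap1, Ets1, Ptprcap, Gimap4, Ikzf3, Txk, Gzma, Gimap3, Ctla2a, AW112010, Stat4 and Satb1, of which 3 belong to the gate. Skap1 (a T cell and NK adaptor), Ets1, Ikzf3, Stat4 and Satb1 (lymphoid transcription factors), Txk (a lymphoid kinase), Ptprcap (a partner of CD45) and the GTPases Gimap3 and Gimap4 were not used by the gate.

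At the edge of the gate, 23 of the 58 cells held exactly 3 gate genes, 19 held 4 and 16 held 5 or more. Another 56 low-C1q cells held 2 gate genes and stayed outside, as did 12 cells with at least 3 gate genes and between 11.3 and 157 C1q UMIs per 10000. Of the gated cells, 48 had no C1q UMI and the highest had 8.15 per 10000.

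**Figure D1:**
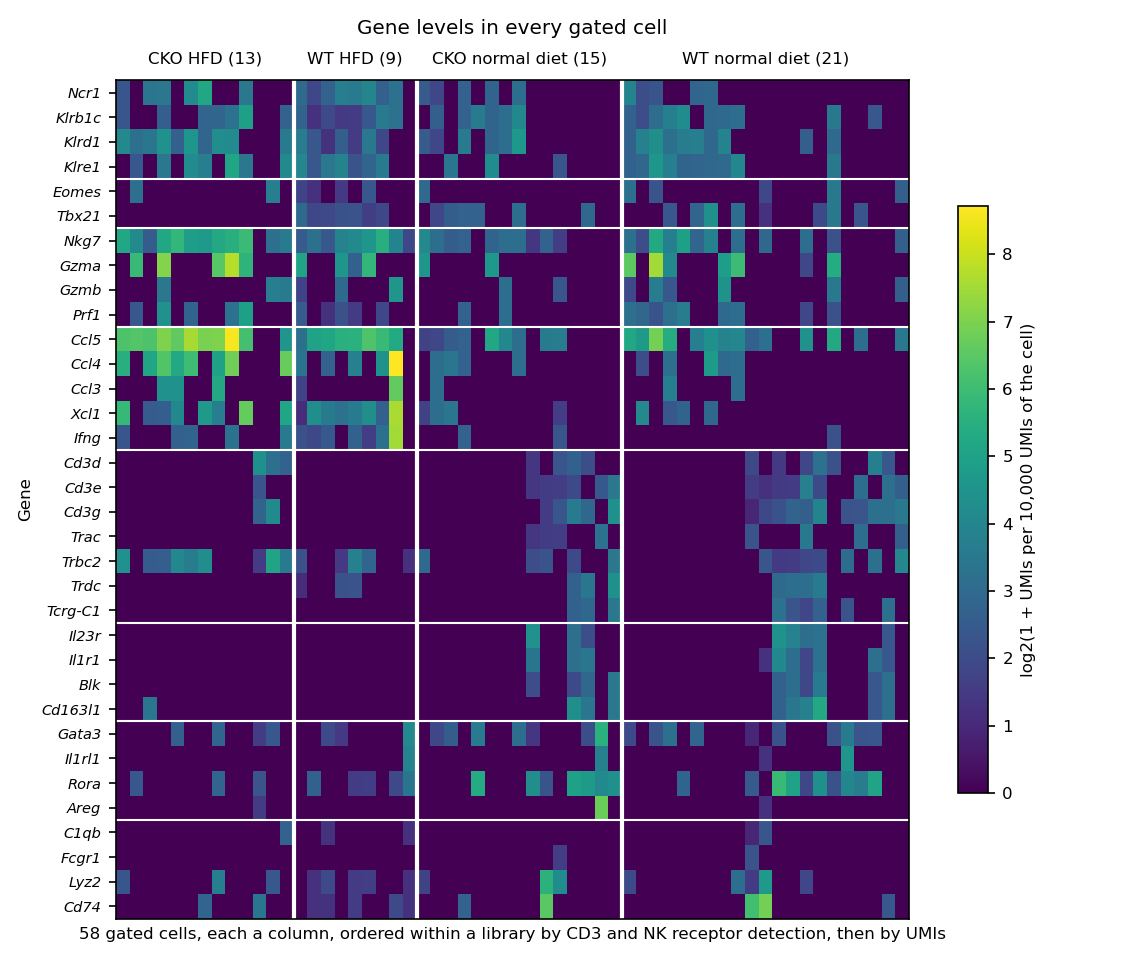
Levels of gate, receptor, effector, T cell, type 17, sort and macrophage genes (vertical axis) in each of the 58 gated cells (horizontal axis, grouped by library), as log2 of 1 plus UMIs per 10000. CD3 genes and NK receptor genes fill mostly different cells, Il23r appears in 8 cells of the normal-diet libraries, and Fcgr1 and C1q genes are nearly empty.

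Fcgr1 and Itgam, the transcripts of the sort proteins CD64 and CD11b, were nearly absent from the gated cells, while Ptprc, the transcript of CD45, was abundant. Fcgr1 (CD64) had 0 UMIs in CKO HFD and 0 in WT HFD, 1 in CKO normal diet and 4 in WT normal diet, the 4 in a single cell. Both cells with an Fcgr1 UMI were among the 4 cells with Lyz2 or class II UMIs described below. In C1q-positive cells Fcgr1 stood at 64.9, 95.6, 40.9 and 45.9 CPM. After thinning every cell to 1000 UMIs it was found in 5.92%, 9.01%, 5.20% and 4.44% of them. The Fcgr1 transcript was therefore seldom seen in macrophages too, and its absence from few shallow cells shows little about CD64 protein. Itgam (CD11b, which mature NK cells carry) had 0, 4, 0 and 4 UMIs, and Fcgr3 (CD16, the Fc receptor that NK cells use) had 0, 2, 0 and 3. The adaptor genes that NK cells and macrophages share were well measured: Fcer1g, the signalling chain of Fc receptors, had 2237, 1139, 764 and 907 CPM, and Tyrobp, the DAP12 adaptor of activating receptors, had 2457, 1848, 517 and 694 CPM. Tyrobp in C1q-positive cells stood at 2393, 1701, 1042 and 1105 CPM, with the same order of the HFD libraries above the normal-diet ones. Ptprc (CD45) stood at 1394, 1382, 1685 and 1913 CPM in gated cells, against 308, 406, 605 and 661 CPM in C1q-positive cells.

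**Figure D2:**
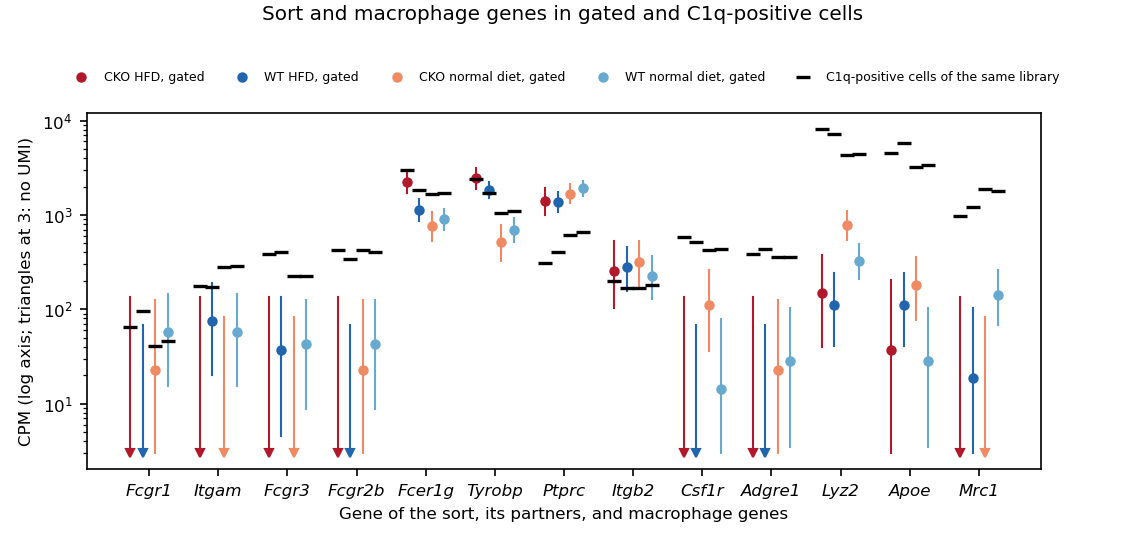
CPM on a log axis (vertical) of sort, adaptor and macrophage genes (horizontal) in gated cells (points with exact Poisson intervals) and C1q-positive cells (dashes) of each library; triangles at the foot mark genes with no UMI in gated cells. Ptprc in gated cells lies above the level of C1q-positive cells and Csf1r, Adgre1, Lyz2, Apoe and Mrc1 lie below it, with Fcer1g and Tyrobp between.

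Macrophage transcripts were scarce in most gated cells and gathered in 4 of them. The 16 macrophage markers had 7 UMIs in CKO HFD, 21 in WT HFD, 63 in CKO normal diet and 83 in WT normal diet, or 1.13%, 1.76%, 8.14% and 6.82% of their summed CPM in C1q-positive cells. Of these UMIs, 57 in CKO normal diet and 73 in WT normal diet came from 4 cells, 2 in each, with at least 5 UMIs of Lyz2 (lysozyme) or at least 10 of MHC class II genes. Those 4 cells, of 5289, 4988, 10917 and 7364 UMIs, also carried CD3 genes and held 92 of 96 and 481 of 483 class II UMIs of the CKO normal-diet and WT normal-diet libraries. Whether each was 1 cell or a pair in 1 droplet was not tested. Markers of mast cells, eosinophils, mesothelium and adipocytes had 0 UMIs in all 4 libraries, neutrophil markers had 2 UMIs, red cell markers 2, fibroblast markers 10, B and plasma cell markers 22 and endothelial markers 25. The 11 monocyte markers held 334 UMIs, 38.8%, 49.7%, 61.4% and 35.5% of their summed CPM in C1q-positive cells, and the 12 dendritic cell markers held 481, at 1.27%, 1.03%, 10.6% and 29.1%. Of the monocyte list, Ly6c2 and Ccr2, which NK and T cells also carry, had 29, 32, 17 and 17 UMIs and 12, 18, 37 and 54 UMIs. The part of these markers in the results below was not tested.

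Gated cells were a smaller share of the library under HFD in both genotypes. The share was 0.149% (0.0793 to 0.254) in CKO HFD, 0.194% (0.0885 to 0.367) in WT HFD, 0.349% (0.195 to 0.574) in CKO normal diet and 0.567% (0.351 to 0.865) in WT normal diet. HFD over normal diet was 0.427 (0.203 to 0.897) in CKO and 0.341 (0.157 to 0.745) in WT. It was 0.689 in CKO and 0.477 in WT when cells were gated after thinning to 1000 UMIs, and 0.431 and 0.531 with at least 4 gate genes, and each of these counting intervals held equal shares. CKO over WT was 0.769 (0.329 to 1.80) on HFD and 0.615 (0.318 to 1.19) on normal diet, so the counting interval held equal shares in both. The number of C1q-positive cells moved with diet as well: 7136 of 8731 kept cells in CKO HFD and 3753 of 4650 in WT HFD, against 2751 of 4302 in CKO normal diet and 2121 of 3705 in WT normal diet. Over low-C1q cells alone, a denominator chosen after seeing the data, the shares were 0.815%, 1.00%, 0.967% and 1.33%. HFD over normal diet then stood at 0.843 (0.402 to 1.77) in CKO and 0.757 (0.348 to 1.65) in WT. The sort itself sets how many lymphoid cells enter a library, so neither denominator gives their share in the fat.

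**Figure D3:**
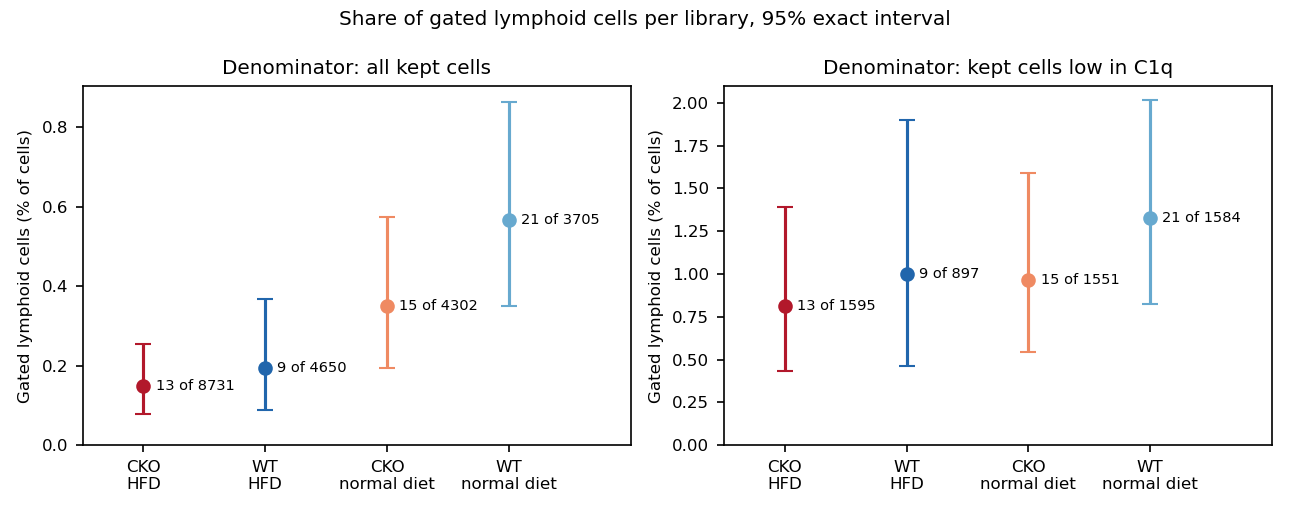
Share of gated cells in percent (vertical axis, points with exact 95% intervals) by library (horizontal axis), over all kept cells and over cells with at most 10 C1q UMIs per 10000. The HFD libraries lie at 0.149% and 0.194% of kept cells, below 0.349% and 0.567% on normal diet, and the 4 libraries lie between 0.815% and 1.33% of low-C1q cells.

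CD3-positive cells were found mainly in the normal-diet libraries. A UMI of Cd3d, Cd3e or Cd3g, the chains that carry the T cell receptor, was present in 3 of 13 cells in CKO HFD (23.1%, 5.04 to 53.8), 0 of 9 in WT HFD (upper bound 33.6%), 7 of 15 in CKO normal diet (46.7%, 21.3 to 73.4) and 12 of 21 in WT normal diet (57.1%, 34.0 to 78.2). With both genotypes together this was 3 of 22 HFD cells (13.6%) and 19 of 36 normal-diet cells (52.8%). Each of these sums joins the cells of 2 libraries, which are not replicates of a diet, so no interval is given. After thinning to 1000 UMIs, CD3 was seen in 2, 0, 4 and 6 cells. With at least 2 gate genes the CD3 share was 17.2% in CKO HFD and 13.3% in WT HFD. Without the 4 cells with Lyz2 or class II UMIs, all of them CD3-positive, the shares were 23.1%, 0%, 38.5% and 52.6%. Cells with no CD3 UMI and at least 1 UMI of Ncr1, Klrb1c, Klrd1 or Klre1, called NK-receptor cells here, were 10 of 13, 8 of 9, 8 of 15 and 9 of 21. The remaining cell, in WT HFD, is described with the ILC2 genes. Only 5 of the 22 CD3-positive cells held an NK receptor UMI, and none of the 22 held Ncr1. The gate uses Cd3e, Cd3g, Ncr1 and Klrb1c, so this division partly follows from it.

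Among CD3-positive cells, a group carried genes of interleukin-17-making gamma-delta T cells, and all of it came from normal-diet libraries. The HFD libraries held 3 CD3-positive cells, all in CKO HFD, against 19 on normal diet, so absence of the group on HFD shows little. Il23r, the interleukin-23 receptor chain (chr6:67422932-67491855, minus strand, GRCm38), had 0 UMIs in CKO HFD, 0 in WT HFD, 17 in CKO normal diet and 26 in WT normal diet. These were levels of 0 (upper bound 135), 0 (68.9), 382 (222 to 611) and 368 CPM (241 to 539.8), and no UMI was found in C1q-positive cells of any library. The 8 cells with Il23r, 3 in CKO normal diet and 5 in WT normal diet, all carried a CD3 gene, a gamma-delta receptor constant gene, Il1r1 (an interleukin-1 receptor) and Blk, a kinase known from gamma-delta T cells that make interleukin-17. A CKO normal-diet cell of 6349 UMIs and a WT normal-diet cell of 2400 UMIs held gamma-chain but no delta-chain UMIs. The first held 1 UMI of the alpha constant gene Trac, and a WT normal-diet cell of 3855 UMIs held 4. Not all 8 were thus resolved from alpha-beta T cells.

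Other genes of this type followed the same libraries. Il1r1 had 0, 0, 12 and 21 UMIs in CKO HFD, WT HFD, CKO normal diet and WT normal diet, Blk had 0, 0, 6 and 15, and Tcrg-C1, a gamma-chain constant gene, had 0, 0, 5 and 13. Cd163l1, the scavenger receptor SCART1 of gamma-delta T cells, had 2, 0, 11 and 29. Zbtb16, the PLZF factor of innate-like T cells, had 0, 0, 22 and 12 UMIs, with 21 and 12 of the normal-diet UMIs in CD3-positive cells. Trdc, the delta constant gene, was less restricted, with 0, 5, 7 and 15 UMIs. Of the products of the type, Il17a had 0, 0, 2 and 1 UMIs, and Il17f and Il22 had none. Over the 12 type 17 markers the libraries held 1, 10, 53 and 97 UMIs, with 11, 10, 5 and 3 members at 0. None of the 12 genes of the type 17 list passed the minimum for a ratio between libraries.

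The alpha constant gene Trac was seen in 4 CD3-positive cells of CKO normal diet and 4 of WT normal diet, and in none on HFD. Cd4 had 0, 0, 1 and 3 UMIs, and Cd8a, Cd8b1 and Foxp3, the factor of regulatory T cells, had none, so the CD3-positive cells were not resolved into helper, killer or regulatory types. Trbc1 and Trbc2, the beta constant genes, were also present in NK-receptor cells, with Trbc1 in 22 of 35 and Trbc2 in 11 of 35. They are near-identical copies whose UMIs may be split by counting, and a beta constant UMI does not mark a T cell in these data.

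Few cells carried genes of group 2 innate lymphoid cells. The clearest was the WT HFD cell without CD3 or NK receptor UMIs, of 7446 UMIs, with 12 UMIs of Gata3 (the factor of type 2 cells), 10 of Il1rl1 (the interleukin-33 receptor), 25 of Ltb, 9 of Il7r and 7 of Rora. A CKO normal-diet cell held 11 UMIs of Gata3 and 3 of Il1rl1 together with 25 of Areg, a growth factor of type 2 cells, and also carried CD3 and Trac UMIs. At least 2 UMIs of the ILC2 genes were found in 0 of 13 cells in CKO HFD, 1 of 9 in WT HFD, 1 of 15 in CKO normal diet and 2 of 21 in WT normal diet. Il13 and Il5, the main products of the type, had no UMI.

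Ncr1 (the receptor NKp46, chr7:4337724-4345164, plus strand) had 15, 37, 6 and 9 UMIs in 6, 8, 5 and 5 cells of CKO HFD, WT HFD, CKO normal diet and WT normal diet. Its level was 550.1 CPM (308 to 907), 691 (486 to 952), 135 (49.5 to 293) and 128 (58.3 to 242), with both HFD libraries above both normal-diet libraries. Ncr1 is a gate gene, so these levels are a description of cells it helped to choose. Within NK-receptor cells alone Ncr1 stood at 835 and 802 CPM on HFD and at 335 and 466 CPM on normal diet, and the WT ratio was 1.72 with a counting interval that held equal levels. Klrb1c (NK1.1), also a gate gene, had 330.1, 355, 202 and 255 CPM. Klrk1, the activating receptor NKG2D, had 440.1, 859, 427 and 269 CPM, and Klrd1, the CD94 chain, had 917, 448, 225 and 340.1. Klre1, an NK receptor chain, had 587, 747, 157 and 312 CPM. Of the Ly49 receptors, Klra8 had 697, 859, 157 and 227 CPM and Klra4 had 17 UMIs in 4 cells, 24 in 2 cells, 0 and 1. Each Ly49 gene was in few cells, and the family has near-identical copies, so these levels rest on single cells and on how reads were assigned.

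The factors and position markers of the NK lineage were thinly measured. Eomes, the factor of conventional NK cells, had 5, 6, 3 and 10 UMIs in 2, 4, 1 and 5 cells. Tbx21 (T-bet) had 0, 16, 7 and 12 UMIs in 0 of 13, 7 of 9, 6 of 15 and 8 of 21 cells. After thinning, Tbx21 was left in 0, 1, 5 and 4 cells, and WT HFD no longer led. Itga2 (CD49b, of conventional NK cells) had 3, 7, 5 and 12 UMIs and Itga1 (CD49a, of tissue-resident cells) had 1, 4, 4 and 1, which does not sort the cells into NK cells and ILC1. Cxcr6, a receptor of resident lymphocytes, had 2, 2, 17 and 11 UMIs, with 14 and 10 of the normal-diet UMIs in CD3-positive cells. S1pr5, of NK cells that leave tissue, had 0, 0, 1 and 3 UMIs.

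Genes of cell killing were present in every library. Nkg7, a granule membrane protein, had 61, 64, 20 and 36 UMIs, or 2237, 1195, 449 and 510.1 CPM, in CKO HFD, WT HFD, CKO normal diet and WT normal diet. Gzma (granzyme A) had 85, 70, 14 and 109 UMIs in 5, 4, 2 and 7 cells, or 3117, 1307, 315 and 1544 CPM, so the CKO normal-diet library was low. Prf1 (perforin) had 367, 168, 44.9 and 198 CPM from 10, 9, 2 and 14 UMIs. Gzmb (granzyme B) had 257, 261, 67.4 and 170.0 CPM from 7, 14, 3 and 12 UMIs. Ctsw, a cathepsin of killer cells, had 440.1, 784, 337 and 227 CPM. Il2rb, the receptor chain for interleukin-15, had 953, 579, 966 and 652 CPM and did not follow diet over all gated cells. Within NK-receptor cells Il2rb was lower on HFD in both genotypes. It stood there at 1281 against 1901 CPM in CKO (ratio 0.674, 0.379 to 1.18) and 651 against 1658 CPM in WT (0.392, 0.230 to 0.667). The counting interval held equal levels in CKO. All of these genes except Prf1, Gzmb and Ctsw were used by the gate.

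Among the chemokines, Xcl1, Ccl4 and Ccl5 stood higher in both HFD libraries than in both normal-diet libraries. Xcl1 (chr1:164931644-164935527, minus strand), which attracts cross-presenting dendritic cells, had 41, 114, 7 and 8 UMIs in 8, 8, 4 and 4 cells. Its level was 1504, 2128, 157 and 113 CPM, against at most 0.365 CPM in C1q-positive cells. After thinning, 53.8%, 55.6%, 20% and 9.52% of gated cells held an Xcl1 UMI, against 0.0143%, 0.0268%, 0% and 0% of C1q-positive cells. Ccl5 (chr11:83525778-83530518), a chemokine of killer and memory lymphocytes, had 230, 179, 25 and 106 UMIs in 11, 8, 9 and 14 cells. Its level was 8435 CPM (7379.9 to 9598), 3342 (2870.4 to 3869), 562 (363 to 829) and 1502 (1229.7 to 1817). These intervals cover counting error only, and single cells held 46 of the CKO HFD and 31 of the WT normal-diet UMIs of Ccl5. Ccl5 was seen in 84.6%, 88.9%, 46.7% and 61.9% of thinned gated cells, against 0.688%, 0.429%, 0.268% and 0.798% of thinned C1q-positive cells. Ccl4 (MIP-1 beta) had 3227, 3286, 157 and 128 CPM, against 372, 196, 149 and 215 in C1q-positive cells. In the normal-diet libraries its level in gated cells was thus close to or below that of macrophages. Ifng, which encodes interferon-gamma, had 6, 79, 3 and 1 UMIs in 5, 7, 2 and 1 cells, or 220.0, 1475, 67.4 and 14.2 CPM.

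A single cell of WT HFD carried much of that library's output. It had 3546 UMIs, no CD3 UMI and 3 UMIs each of Ncr1 and Klrb1c, and it held 149 of the 176 Ccl4 UMIs, 69 of the 114 of Xcl1, 64 of the 79 of Ifng and 35 of the 37 of Ccl3. Without it the WT HFD levels were 539.8 CPM of Ccl4, 899.7 of Xcl1 in 7 of 8 cells, 299.9 of Ifng in 6 of 8 cells and 40.0 of Ccl3. Xcl1 and Ifng in the other cells still lay above the 113 and 14.2 CPM of WT normal diet, while Ccl3 lay below its 56.7 CPM.

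**Figure D4:**
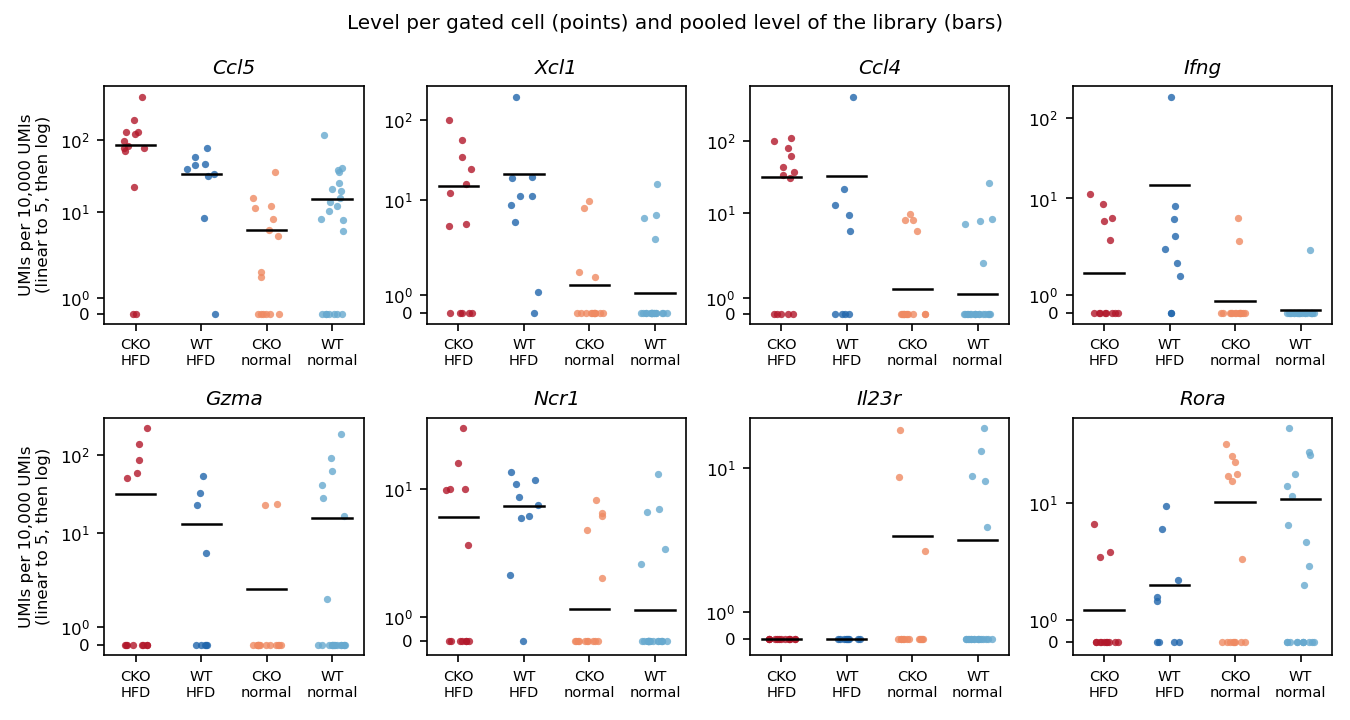
UMIs per 10000 of Ccl5, Xcl1, Ccl4, Ifng, Gzma, Ncr1, Il23r and Rora in single gated cells (points, vertical axis) by library (horizontal axis), with bars at the pooled level of the library. Xcl1 and Ccl5 lie above 0 in most HFD cells, 1 WT HFD cell tops Ccl4, Xcl1 and Ifng, and Il23r lies above 0 in 8 normal-diet cells alone.

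In the genotype contrast on HFD, CKO cells held more Ccl5 and Gzma and less Ifng than WT cells. Ratios were formed from CPM plus 20 for genes that reached 100 CPM and 30 UMIs in the library where they were higher, and a gene was counted when it passed 2-fold. The summed UMIs differ between libraries, so in every contrast a gene reaches 30 UMIs at a lower level in the library with more. The higher and lower counts of a contrast therefore cannot be compared with each other. Of 213 genes, 14 (6.57%) were higher in CKO and 34 (16.0%) were lower. Ccl5 was higher by 1.33 on the log2 scale, a ratio of 2.52 (2.07 to 3.09), and Gzma by 1.24, a ratio of 2.39 (1.72 to 3.32). Within NK-receptor cells they stood at 1.69 and 1.63 on the log2 scale. With at least 2 gate genes both fell short of 2-fold, at 0.45 for Ccl5 and 0.34 for Gzma, and Gzma did so without its top cell (0.80) and under scaling by medians of ratios (0.99). Ifng was lower, at -2.64 (ratio 0.149, 0.0531 to 0.339), with 64 of the WT UMIs in the single cell above. Without that cell Ifng stood at 220.0 CPM in CKO HFD and 299.9 CPM in WT HFD. Of the lists, the ILC1 list had 3 of 4 measured members lower: Inpp4b, Ltb and the G protein regulator Rgs2. The cytokine list had 1 of 6 higher (Ccl5) and 2 lower (Ifng and Ltb). The median over all 213 genes was -0.11. Ifng and Ltb reached the minimum of UMIs for a ratio in WT HFD alone, which presets their direction. These counts therefore do not show that a list as a set was lower. Of the 47 WT UMIs of Ltb, 25 were in 1 cell, without which Ltb stood at -0.51, and it stood at -0.74 within NK-receptor cells. Rgs2 stood at -0.64 with at least 2 gate genes. None of the 4 measured NK receptors passed 2-fold. Hopx, a cofactor of effector lymphocytes, stood at 3.06, but 30 of its 38 CKO UMIs were in 1 cell, and the histone gene H2afz (1.61) had 76 of 93 in 1 cell.

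Part of that contrast was shared with the macrophages of the same libraries. Cmss1 was lower in CKO HFD at -4.08 in gated cells and -3.35 in C1q-positive cells, Cdk8 at -3.74 and -2.31, Lars2 at -2.98 and -2.30, and Gphn at -2.56 and -2.14. Of the 14 genes higher in gated CKO cells, 9 were over 0.5 on the log2 scale in C1q-positive cells in the same direction, and of the 34 lower genes 15 were. Ccl5 stood at 0.46 and Ifng at 0.00 in C1q-positive cells. Scaling by medians of ratios moved every gene by -0.25 and gave 6 higher and 49 lower.

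On normal diet CKO cells held less Ccl5 and Gzma than WT cells, the opposite order to HFD. Of 328 genes, 10 (3.05%) were higher and 23 (7.01%) lower, and 0 and 1 of these were shared with C1q-positive cells over 0.5 on the log2 scale. Ccl5 stood at -1.39 (ratio 0.374, 0.232 to 0.583) and Gzma at -2.23 (0.204, 0.108 to 0.357), with the CKO Gzma in 2 of 15 cells and the WT Gzma in 7 of 21. Rgcc, a cell cycle regulator, was lower at -1.53, with 29 of 44 WT UMIs in 1 cell, and the lymphoid membrane gene Ms4a4b at -1.40. The activation-induced receptor Nr4a1 was higher at 1.79 (3.70, 1.97 to 7.29), 1 of 8 measured activation genes past 2-fold. It no longer passed 2-fold within NK-receptor cells, at 0.40 (1.35, 0.290 to 6.80) from 5 and 4 UMIs, or with at least 2 gate genes, at 0.93. Among transcription factors, Id2 (1.22), which innate lymphoid cells need, and Satb1 (1.06) were higher, 2 of 7 measured. Neither passed 2-fold within NK-receptor cells (0.64 for Id2 and 0.02 for Satb1), without the cell with the most UMIs (0.88 and 0.57) or as a mean of CPM over cells (0.46 and 0.61). Of the 168 genes measured under both diets, 10 were higher in CKO on HFD and 2 on normal diet, and 25 and 6 were lower. No gene passed 2-fold in the same direction under both diets, which says little with so few called. The change of order between diets was not tested for Ccl5 or Gzma.

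The diet contrast was the larger in both genotypes, and much of it was shared with macrophages. In CKO, 81 of 221 genes (36.7%) were higher on HFD and 67 (30.3%) lower, and in WT 70 of 385 (18.2%) were higher and 83 (21.6%) lower. Of these, 69 of 81 and 48 of 67 in CKO, and 40 of 70 and 44 of 83 in WT, moved over 0.5 on the log2 scale in the same direction in C1q-positive cells. Scaling by medians of ratios moved every gene by -0.68 in CKO and -0.41 in WT, and gave 44 higher and 87 lower in CKO and 40 and 133 in WT. In 210 genes measured in both genotypes, 38 were higher in both (47.5% of 80 in CKO and 80.9% of 47 in WT), of which 26 were ribosomal protein genes. Set apart from macrophages by a C1q-positive difference of at most 0.5 in both genotypes were 4 of the 38: Xcl1, Nkg7, the lymphoid transcript AW112010 and Ctla2a, a protease inhibitor of lymphocytes. Nkg7 is a gate gene, and in WT it stood at -0.00 (0.998, 0.622 to 1.64) within NK-receptor cells and at 0.79 under scaling by medians of ratios. Lower in both were 21 genes (36.2% of 58 and 87.5% of 24), of which 4 met the same limit: Rora, the sialyltransferase gene St6galnac3, Psap and the class II chain gene Cd74. Nearly all Cd74 of the normal-diet libraries lay in the 4 cells with class II UMIs described above.

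Xcl1 on HFD was higher by 3.10 on the log2 scale in CKO (ratio 9.56, 4.25 to 25.3) and by 4.01 in WT (18.8, 9.21 to 44.5). Within NK-receptor cells, 10 and 8 in CKO and 8 and 9 in WT, the differences were 2.47 (5.81, 2.42 to 16.9) and 2.52 (5.97, 2.93 to 14.2), so the order of the diets was also seen in cells without a CD3 UMI. Ccl4 stood at 4.20 in CKO and 4.49 in WT. Ccl5 stood at 3.86 in CKO (interval of the ratio 9.92 to 23.7) and 1.14 in WT, and within NK-receptor cells at 4.08 and 0.08, where its level was 12584 CPM in CKO HFD, 3882 in WT HFD, 727 in CKO normal diet and 3678 in WT normal diet. Gzma stood at 3.23 in CKO, and within NK-receptor cells at 2.57 in CKO and -1.70 in WT. The low Ccl5 and Gzma of the CKO normal-diet library therefore enter both its diet contrast and its genotype contrast. Of the 23 members of the cytokine list, 3 were measured in CKO (Xcl1, Ccl4 and Ccl5, median 3.86 beside 0.21 over all genes). In WT 6 were measured (Ifng, Ltb, Xcl1, Ccl3, Ccl4 and Ccl5, median 3.61 beside -0.10). All of these were higher on HFD. Except for Ccl5 in WT, each reached the minimum of UMIs for a ratio in the HFD library alone, which presets its direction. The counts and medians therefore do not show that the list as a set was higher. Ccl3 in WT stood at -0.35 without its top cell. In WT, 4 of 24 NK receptors were measured (Ncr1, Klrk1, Klre1 and Klra8, median 1.72). These 4 were higher on HFD, and Ncr1 is a gate gene. Each reached the minimum of UMIs for a ratio in the HFD library alone, which presets its direction. The count therefore cannot be compared with the 18.2% over all genes. Within NK-receptor cells Ncr1 stood at 0.76 (1.72, 0.816 to 4.06) and Klrk1 at 0.26 (interval of the ratio 0.669 to 2.28), neither past 2-fold. In CKO none was measured.

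Rora, a factor of type 2 and type 17 lymphocytes, had 147 CPM in CKO HFD, 261 in WT HFD, 1033 in CKO normal diet and 1119 in WT normal diet. It stood at -2.66 on the log2 scale in CKO and -2.02 in WT, with 39 of 46 and 78 of 79 of its normal-diet UMIs in CD3-positive cells. Within NK-receptor cells it stood at -1.65 in CKO (0.285, 0.0288 to 1.49), from 2 and 7 UMIs, and at 1.26 in WT (2.93, 0.376 to 132), from 7 and 1 UMIs, so its direction there was not resolved. St6galnac3 stood at -2.82 and -2.97. Of the transcription factor list, 5 of 7 measured members were lower on HFD in CKO (Rora, Tox, Ets1, Satb1 and Stat4). In WT 2 of 8 were lower (Rora and Zeb2) and 1 higher (Id2). In CKO, 3 of 4 measured activation genes were also lower (Nr4a1, Junb and Nfkbia). A lower gene needs 30 UMIs only in the normal-diet library, which had more UMIs in CKO, and Rora reached them there alone. These list counts therefore cannot be compared with the 30.3% over all genes. Of the 67 genes lower in CKO, 48 were also lower in C1q-positive cells, by over 0.5 on the log2 scale. Within NK-receptor cells 10 of 114 genes were lower. These cells hold fewer UMIs, so a gene needs a higher level to reach 30 UMIs there, and the 2 counts cannot be compared. Gated cells of a library are a mixture of the kinds described above, so fewer cells of a kind and less RNA of a gene per cell cannot be told apart in these sums.

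**Figure D5:**
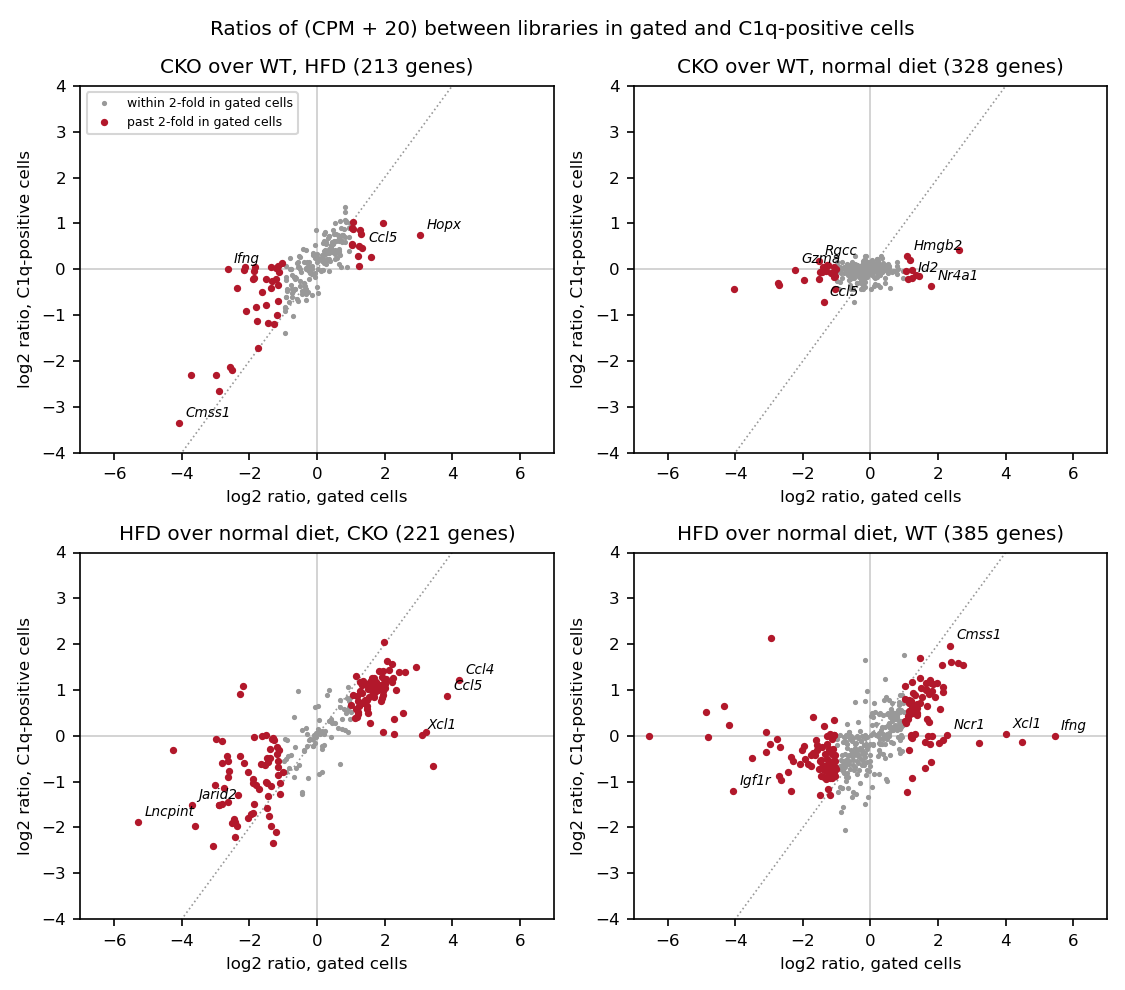
Log2 ratio in gated cells (horizontal axis) against the log2 ratio in C1q-positive cells (vertical axis) for each measured gene, with red points past 2-fold in gated cells and a dotted line of equal ratios, in 4 panels for CKO over WT on HFD and on normal diet and for HFD over normal diet in CKO and in WT. In the diet panels Xcl1 lies at 3.10 and 4.01 in gated cells beside 0.01 and 0.03 in C1q-positive cells, while Cmss1 in the HFD genotype panel lies at -4.08 and -3.35.

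Clustering of the 58 gated cells gave 3 groups. One was NK-like by 5 NK markers among its 20 leading genes and held 26 cells, 1 from CKO HFD, 5 from WT HFD, 8 from CKO normal diet and 12 from WT normal diet. A second, of 17 cells with 16 CD3-positive, held 0, 1, 7 and 9 cells and all 4 cells with Lyz2 or class II UMIs. Its 20 leading genes held 3 dendritic cell markers, all of class II, and 2 type 17 markers. Only lymphoid names were used, so it was left unnamed. Clustered again without those 4 cells, 13 cells formed a group named by the type 17 list, as at resolution 1 and with centring. No group had that name at resolution 0.25 or with at least 4 gate genes. The last, of 15 cells, was made of 12 CKO HFD and 3 WT HFD cells. It was led by Ccl4, Ifng, Ccl3, Xcl1, Hopx and Ccl5, and also stayed unnamed, with too few markers of any list. Of its cells 13 carried an NK receptor, and because it came from the HFD libraries alone, a cell type and a library difference cannot be told apart. It held the WT HFD cell described above, with 149 UMIs of Ccl4, 69 of Xcl1, 64 of Ifng and 35 of Ccl3. The CKO HFD cell with most of the Hopx UMIs was also in it. The lead of several of these genes thus rests largely on single cells.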

How the data were processed

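UMI counts per gene and cell were deposited by the authors as 1 filtered matrix per library (32285 genes), written by Cell Ranger 7.0.0 per the file headers, with GRCm38 as the build named in the submitters' processing notes. The sources used here do not give the handling of intron reads. Deposited cells numbered 8749 in CKO HFD, 5054 in WT HFD, 4327 in CKO normal diet and 3737 in WT normal diet, and 18, 404, 25 and 32 of them failed the filter of 500 UMIs, 300 genes and 10% mitochondrial UMIs, none of these in the gate. The members, the gate and the gene lists were chosen with earlier results of these data known.

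Gated UMIs were summed per library and scaled to CPM. Cells were clustered with scanpy 1.11.5 and leidenalg 0.10.2 (1000 variable genes, 10 principal components, resolution 0.5, no integration). A group of cells was named from at least 3 markers among 20 leading genes, and names other than those of lymphoid cells were not used. Sums and intervals used Python 3.11.15, numpy 2.4.6, pandas 2.3.3 and scipy 1.17.1, and ratio counts were tested on simulated data. Doublets stayed in: the automatic Scrublet threshold called 0 cells, so it had not worked, and removing 610, 173, 148 and 110 top scores was an alternative that took 1 gated cell. Gene positions came from GENCODE M21 (32158 identifiers found) and promoters from the RefSeq GRCm38.p6 table.

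Named genes were the gate, C1q and sort genes and Prdm1, the leading members of each list by level and by ratio, the 15 genes with the highest lowest fold over C1q-positive cells, and the 10 highest and 10 lowest ratios of each contrast that were not higher in C1q-positive cells. Mitochondrial, ribosomal, haemoglobin, immunoglobulin, T cell receptor variable and predicted genes were left out of the last rule. Further members of the lists, Cd163l1, Psap, Cd74 and the genes of single cells were named after their values were seen. Alternatives covered the cell filters, the gate, thinning, doublets, scaling, low-level filter, pseudocount, clustering and, chosen after seeing the data, the denominator, NK-receptor cells alone, cells with Lyz2 or class II UMIs left out and the top cell of each gene left out.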

Additional observations from a re-analysis of the deposited data

Results flagged for a closer look

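Some genes passed 2-fold in opposite directions in contrasts of the same kind, and none of these differences was tested. Ccl5 in CKO over WT stood at 1.33 (log2) on HFD and -1.39 on normal diet. Gzma stood at 1.24 on HFD and -2.23 on normal diet in the same contrast. The histone gene H3f3b stood at 1.22 on HFD and -1.02 on normal diet. Hmgb2, a chromatin protein abundant in dividing cells, stood at -1.86 on HFD and 1.08 on normal diet. In HFD over normal diet, Hmgb2 stood at -1.28 in CKO and 1.66 in WT. Cmss1 stood at -1.08 in CKO and 2.35 in WT in that contrast, and at 1.97 in WT C1q-positive cells.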

How the results depend on the processing

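With 9 to 21 gated cells in a library, 1 library per group and shallow cells, these results rest on few cells, and every cause of a changed value below was not tested. No paired analysis was possible because the labels give no replicate numbers and there was 1 library per group. NK-like clusters alone were not run as an alternative, since no library had 30 such cells.

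The share of gated cells moved to 0.332% in CKO HFD, 0.767% in CKO normal diet and 0.999% in WT normal diet with at least 2 gate genes, to 0.186% in CKO normal diet and 0.324% in WT normal diet with at least 4, to 0.171% and 0.228% with a thinned gate, and to 0.0687% in CKO HFD without Gzma and Nkg7. Over low-C1q cells the shares were 0.815%, 1.00%, 0.967% and 1.33%, and the WT diet ratio was 0.757.

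The NK-like share of gated cells, 7.69%, 55.6%, 53.3% and 57.1%, moved to 100% in CKO HFD and 88.9% in WT HFD at resolution 0.25, 23.8% in WT normal diet at resolution 1, 88.9% in WT HFD with centring, 11.1%, 20% and 28.6% in WT HFD, CKO normal diet and WT normal diet after thinning, 41.4% in CKO HFD with at least 2 gate genes and 0 in all 4 libraries with at least 4. The CD3 share of WT normal diet was 28.6% after thinning. Macrophage markers stood at 6.99% of the C1q-positive level in WT HFD as thinned shares, and at 1.11% in WT normal diet without any C1q UMI.

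For counts past 2-fold, CKO over WT on HFD gave 6 higher by medians of ratios, 9 by mean CPM, 26 with a filter of 50 CPM and 20 UMIs, 1550 without a filter, 78 with at least 2 gate genes and 7 in NK-receptor cells, and 65, 1800 and 75 lower with the weaker filter, no filter and at least 2 gate genes. On normal diet it gave 6 higher when scaled by genes not higher in macrophages, 28 and 1772 with the weaker and no filter, 31 and 6 with at least 2 and 4 gate genes and 3 in NK-receptor cells, and 13, 48, 1386, 15 and 3 lower by that scaling, the weaker filter, no filter, at least 4 gate genes and NK-receptor cells. HFD over normal diet in CKO gave 44, 1651 and 188 higher by medians of ratios, without a filter and with at least 2 gate genes, and 147, 3975, 337, 27 and 10 lower with the weaker filter, no filter, at least 2 and 4 gate genes and NK-receptor cells. In WT it gave 40 and 945 higher by medians of ratios and without a filter, and 133, 183, 2070, 171, 14 and 10 lower by medians of ratios, the weaker filter, no filter, at least 2 and 4 gate genes and NK-receptor cells.

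Of 111 ratios of named genes, 110 kept direction and side of 2-fold under each pseudocount, 109 without top doublet scores, 98 under medians of ratios, 78 in NK-receptor cells and 87 without the top cell. Those that changed sign in NK-receptor cells were H2afz (-0.51) and Ern1 (1.14) for CKO over WT on HFD, Grap2 (0.65) and Rora (2.52) on normal diet, and Rora (1.26), Nkg7 (-0.00) and Id2 (-0.10) for HFD over normal diet in WT. Without the top cell, H2afz (-0.51), Ern1 (0.97) and Ccl4 (2.54) changed sign for CKO over WT on HFD and Ccl3 (-0.35) for HFD over normal diet in WT. Ern1 stood at 0.03 with at least 4 gate genes and Hmgb2 on normal diet at -0.12 with at least 2.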

Other observations

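Ccr2, the receptor for monocyte chemokines, had 440.1 CPM in CKO HFD, 336 in WT HFD, 831 in CKO normal diet and 765 in WT normal diet. Of the receptors for macrophage cytokines, Il18r1 had 110.0, 261, 427 and 538 CPM and Il12rb2 had 220.0, 18.7, 247 and 283 CPM, the WT HFD value from 1 UMI. Tnfsf11 (RANKL) had 0, 1, 16 and 11 UMIs in 0, 1, 3 and 4 cells. The 10 markers of dividing cells held 9, 84, 52 and 33 UMIs, or 33.2%, 123%, 144% and 76.9% of their summed CPM in C1q-positive cells. Of these, Hmgb2, which resting lymphocytes also carry, had 8, 60, 33 and 24 UMIs and Mki67 had 0, 3, 0 and 1. Of the interferon genes, Ifi27l2a had 25 UMIs in 3 cells of CKO HFD, 0 in WT HFD, 12 in CKO normal diet and 20 in WT normal diet, and Ifit3 had none.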
